A study of Homo sapiens with 14 samples.

Results

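Negative spheres were compared with the cultured U87MG cell line on 5 of the 14 arrays of a study of glioma spheres, with the arrays of each group chosen by their titles. Negative spheres had 2 arrays and the cell line had 3. U87MG is a human glioblastoma line. All 5 arrays used total RNA of these cells, hybridised to whole-transcript arrays, and none of the cells had received conditioned medium of mesenchymal stromal cells, which was the treatment in 6 of the remaining arrays. The last 3 arrays were of untreated gliospheres, the spheres grown from cells sorted for CD133.

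The labels call the negative spheres glioma cells growing as spheroids that are not stem cells. The methods describe the negative population as the fraction left by the same sort, which was seeded in serum-free neural medium with EGF, bFGF and LIF, stopped making spheres after a few passages and then tended to attach. The cell line was kept without treatment, and the methods give a medium with fetal bovine serum for its expansion. Sorting, medium and mode of growth therefore differ together between the groups and cannot be told apart. The passage at which either group was harvested is not given in the sources used here. In such bulk RNA, fewer cells of a kind and less RNA per cell cannot be told apart either.

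CD133, the product of PROM1, is a membrane glycoprotein used to sort glioma cells that can found spheres. Sphere medium keeps growth factor signalling on through the EGF and FGF receptors and lacks the lipoproteins and adhesion proteins of serum. Attached glioblastoma cells in serum are known for high output of matrix proteins, proteases and inflammatory cytokines. Cells with a heavy secretory load raise chaperones of the endoplasmic reticulum through the unfolded protein response, and cells short of amino acids raise biosynthetic enzymes through ATF4.

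The deposited values are log2 signals per transcript cluster, the set of probes that reads 1 transcribed locus. Over all 67528 clusters the median signal was 3.69 and 3.59 in negative spheres and 3.60, 3.69 and 3.92 in the cell line, and signals at this level are called near background here. The arrays of the cell line were less alike than those of negative spheres. Pearson's r across clusters was 0.985 between both arrays of negative spheres, and 0.961, 0.928 and 0.930 between cell line replicates 1 and 2, 1 and 3, and 2 and 3. Cell line replicate 1 had an r of 0.983 and 0.980 with the arrays of negative spheres, above its r with either other array of its own group. The same held for cell line replicate 3, at 0.943 and 0.944, while replicate 2 had 0.964 and 0.953. Over protein-coding genes with a mean log2 signal of at least 5, r was 0.932, 0.939 and 0.944 between cell line arrays. Over the same genes it lay between 0.955 and 0.968 for each cell line array with negative spheres, so replicate 1 was not alone in this. Clusters are not independent replicates, so these values describe the arrays only.

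The label of a glioma line was checked against markers. Of 27 markers measured, 23 were below 5 in all 5 arrays. PROM1 was 3.55 and 3.36 in negative spheres and 3.36, 3.42 and 3.55 in the cell line, at the level of background in both groups. It was at the same level, 3.54, 3.51 and 3.41, in the gliospheres grown from cells sorted for CD133, so that the arrays give no information on the sort. The astrocyte filament GFAP was 3.60 and 3.57 in negative spheres and 3.62, 3.63 and 3.49 in the cell line. Of a longer list of 11 astrocyte markers, 6 had a mean below 5 and 5 did not. Among the latter, GJA1 was 13.60 and 13.92 in negative spheres and 14.58, 13.19 and 11.68 in the cell line. ALDOC lay between 6.93 and 9.68 and GLUL between 5.07 and 6.12. SOX2 and OLIG2, neural transcription factors of glioma stem cells, stayed between 3.44 and 3.90 in all 5 arrays. The mesenchymal filament VIM, at 15.56 and 16.16 in negative spheres and 15.72, 15.66 and 15.60 in the cell line, and the hyaluronan receptor CD44, from 12.01 to 12.79, were high in every array. Of the other mesenchymal markers checked, NT5E lay between 15.59 and 17.80, but THY1 was near background, between 3.26 and 3.61. The neuronal marker MAP2 lay between 5.08 and 6.47. Leukocyte PTPRC, endothelial CDH5 and VWF and epithelial CDH1 lay between 3.16 and 3.65. Epithelial EPCAM lay between 4.29 and 4.50, and myeloid CX3CR1 reached 4.88 in cell line replicate 3. Of 10 listed epithelial markers 9 had a mean below 5. The other, KRT8, was 5.66 and 5.76 in negative spheres and 5.90, 6.01 and 6.39 in the cell line (unadjusted p = 0.0281 and adjusted p = 0.693 in limma). Summed over 12 myeloid markers the log2 signal was 52.8 in both arrays of negative spheres and from 51.9 to 53.9 in the cell line, and over 10 endothelial markers 37.2 and 37.3 in negative spheres and from 36.9 to 38.1 in the cell line. The myeloid sum includes 1 marker with a mean of at least 5, and the other 11 were below it. All 10 endothelial markers had a mean below 5.

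No cluster differed between negative spheres and the cell line at a Benjamini-Hochberg adjusted p below 0.05 in a limma fit of all 14 arrays in 5 groups (0 of 67528, 0%, smallest adjusted p 0.173). At a nominal p, that is an unadjusted one, up to 0.05, 1443 clusters were higher and 3083 were lower in negative spheres. With a fold of at least 2 added, the criterion of the study, 138 were higher (0.204%) and 775 were lower (1.15%). The lower ones were mostly outside named genes: 602 had no gene symbol, 38 had several, 118 belonged to other named genes that do not code for protein and 17 to protein-coding genes. Of the higher ones 27 belonged to protein-coding genes. The split depended on the scaling of the arrays, with 417 higher and 526 lower after quantile normalization and 206 higher and 600 lower after median centring, and for that reason the rest concerns named protein-coding genes. An exact permutation test of 2 against 3 arrays has 10 splits and cannot go below p = 0.1. The labels number the negative spheres as biological replicates but the cell line only as replicates, and name no separate cultures for the cell line. The p-values rest on the spread within groups over all 14 arrays, not these 5 alone, and part of it may be technical.

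Single arrays set how many clusters passed. Without cell line replicate 1, 198 clusters passed at an adjusted p below 0.05 in limma (0.293%), 38 higher and 160 lower in negative spheres. Of these 198, 148 had no gene symbol, and the protein-coding ones split the other way, 23 higher and 4 lower. Without negative spheres replicate 1, 25 passed (0.037%), 5 higher and 20 lower. Leaving out any of the other 3 arrays of these groups, or gliospheres replicate 3, gave 0. The criterion count went to 416 higher and 2164 lower without cell line replicate 1.

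**Figure D1:**
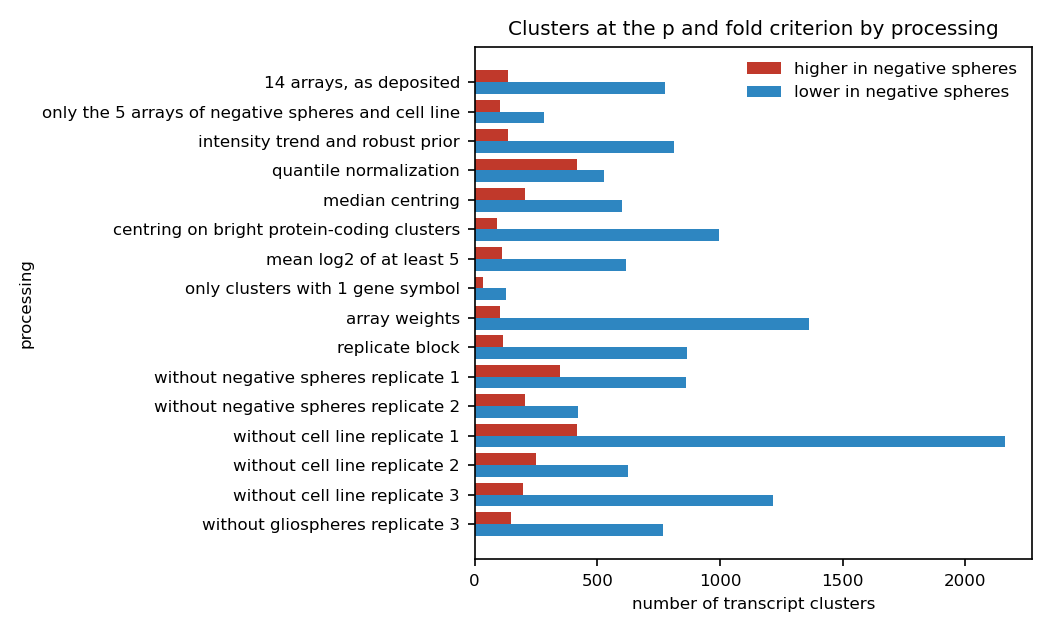
Number of transcript clusters at a nominal limma p up to 0.05 and a difference of 2-fold or more (horizontal axis), higher (red) or lower (blue) in negative spheres than in the cell line, for each way of processing (rows). The deposited values gave 138 higher and 775 lower, and leaving out cell line replicate 1 gave 416 higher and 2164 lower.

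Taking the brightest cluster for each of 17228 protein-coding genes, 534 genes had a nominal p up to 0.05 with a higher mean in negative spheres (3.1%) and 275 with a lower mean (1.6%). Both arrays of negative spheres lay above all 3 arrays of the cell line in 1215 genes (7.05%) and below all 3 in 1205 (6.99%). The median log2 difference, negative spheres minus cell line, was -0.0023 over all these genes and 0.07 over the 8067 with a mean of at least 5. Of those 8067, 4919 had a higher mean in negative spheres. None of the genes below passed the adjusted p, and each is given by its values.

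The promoters of 3 genes are shown first, and no result rests on their sequence. CXCL8 had the largest difference among the named genes. HSPA5 and XBP1 belong to the unfolded protein response, a list in which every measured member had a higher mean in negative spheres. The sequences are those of RefSeq on GRCh38.p14, from 250 bases before to 50 bases after the start of the gene, read in the direction of transcription. CXCL8 lies at chr4:73740319-73740618 (plus strand), HSPA5 at chr9:125241294-125241593 (minus strand) and XBP1 at chr22:28800520-28800819 (minus strand). Capitals in CXCL8 mark the letters TGACTCA, known from AP-1 sites, and GGAATTTCC, known from NF-kappaB sites. Capitals in the other promoters mark CCAAT and CCACG with 9 bases between, the ER stress element known from chaperone genes.
CXCL8: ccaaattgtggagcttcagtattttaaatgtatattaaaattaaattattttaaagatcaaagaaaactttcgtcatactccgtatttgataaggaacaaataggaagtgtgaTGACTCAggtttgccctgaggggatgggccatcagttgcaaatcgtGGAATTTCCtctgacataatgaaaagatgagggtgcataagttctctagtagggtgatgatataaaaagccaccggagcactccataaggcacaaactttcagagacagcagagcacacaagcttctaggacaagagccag
HSPA5: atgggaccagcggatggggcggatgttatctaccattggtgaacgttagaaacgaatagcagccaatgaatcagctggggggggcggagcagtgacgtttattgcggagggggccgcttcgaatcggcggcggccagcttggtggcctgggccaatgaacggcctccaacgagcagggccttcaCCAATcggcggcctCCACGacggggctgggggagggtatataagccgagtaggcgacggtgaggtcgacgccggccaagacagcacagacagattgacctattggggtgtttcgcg
XBP1: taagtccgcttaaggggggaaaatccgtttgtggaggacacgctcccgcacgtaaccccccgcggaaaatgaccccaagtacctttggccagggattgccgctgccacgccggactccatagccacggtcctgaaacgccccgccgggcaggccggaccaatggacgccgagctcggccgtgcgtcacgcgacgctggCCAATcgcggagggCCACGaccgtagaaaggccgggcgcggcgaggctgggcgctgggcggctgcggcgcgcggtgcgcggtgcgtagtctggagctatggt
The motifs were searched on both strands. TGACTCA was in 4.92%, GGAATTTCC in 0.472% and the ER stress element in 0.0806% of 27305 promoters of the same length. Among the 17 listed genes of the unfolded protein response, 5 held the element, and 4 of these were measured. PDIA4 and DNAJC3, the members with the smallest p between the groups, did not hold it. A match describes the letters only.

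Among genes higher in negative spheres, the transcription regulator ID1 had the largest difference. ID1, which blocks helix-loop-helix factors and is a classic target of BMP signalling, was 10.96 and 10.76 in negative spheres and 9.43, 9.51 and 6.84 in the cell line. Cell line replicate 3 was lowest by far and the groups did not overlap. The difference was 2.27 ± 0.71 log2 (SE), or 4.82-fold, with an unadjusted p of 0.00825 and an adjusted p of 0.622 in limma. The other 14 measured members of the list of BMP and ID genes did not have a nominal p up to 0.05, and the median of the 15 was 0.10, which became -0.02 without negative spheres replicate 2 and -0.05 without cell line replicate 3.

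MET, the receptor of hepatocyte growth factor, was 11.57 and 11.76 in negative spheres and 10.17, 10.75 and 10.69 in the cell line. Both arrays of negative spheres were above the cell line by more than the range of either group, a 2.18-fold difference (log2 1.13 ± 0.24 SE, unadjusted p = 0.000611 and adjusted p = 0.351 in limma). FGF5, a secreted fibroblast growth factor, was 6.76 and 7.65 in negative spheres and 6.46, 6.11 and 6.12 in the cell line, without overlap (log2 0.97). FGF2 was 8.70 and 9.36 in negative spheres and 9.55, 9.23 and 11.37 in the cell line, where replicate 3 alone was high. TGFA, a ligand of the EGF receptor, was 7.84 and 8.46 in negative spheres and 8.41, 7.12 and 6.33 in the cell line, with overlap. Of 18 measured growth factor receptors and ligands, 2 were higher at a nominal p up to 0.05 (3.1% of all genes) and 0 lower, and the median difference was 0.04, or -0.05 after centring on bright protein-coding clusters. EPHA2, an ephrin receptor counted with the feedback genes of MAPK signalling, was 5.66 and 5.40 in negative spheres and 5.25, 4.45 and 4.47 in the cell line.

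DICER1, the nuclease that cuts microRNA precursors, was 8.48 and 8.80 in negative spheres and 7.66, 7.97 and 7.20 in the cell line (2.04-fold, unadjusted p = 0.000596 and adjusted p = 0.35 in limma). Genes linked to splicing were also named by the rule of p and fold, though no list of them was drawn up. SRSF11, a splicing factor, was 10.20 and 10.81 in negative spheres and 9.98, 9.24 and 8.57 in the cell line. ARGLU1, a regulator of splicing and transcription, was 10.87 and 11.44 in negative spheres and 10.84, 9.49 and 9.61 in the cell line, so that cell line replicate 1 all but reached the lower array of negative spheres. RSRP1 was 8.0 and 7.92 in negative spheres and 7.24, 6.53 and 6.57 in the cell line, and NKTR, a cyclophilin with an arginine- and serine-rich domain, was 7.12 and 7.97 in negative spheres and 6.71, 6.77 and 5.99 in the cell line. Their folds ran from 2.07 (NKTR) to 2.37 (SRSF11), with adjusted p from 0.538 to 0.62 in limma. ARGLU1 passed when cell line replicate 1 was left out (log2 1.60, adjusted p = 0.0228).

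The remaining genes with higher means were of varied function. HMGA2, an architectural chromatin protein of embryonic and tumour cells, was 8.30 and 8.94 in negative spheres and 7.30, 7.83 and 7.59 in the cell line (2.07-fold). ABCA1, which exports cholesterol to lipoproteins, was 10.71 and 10.60 in negative spheres and 9.80, 9.33 and 9.54 in the cell line (2.14-fold). In ABCA1 the gap between the groups was wider than the range of either group, and in HMGA2 it was narrower than both ranges. ASPH, an aspartate hydroxylase of the endoplasmic reticulum, was 12.37 and 12.43 in negative spheres and 12.05, 11.26 and 10.80 in the cell line, and passed without cell line replicate 1 (log2 1.37, adjusted p = 0.0447). PITPNC1, a phosphatidylinositol transfer protein, was 11.10 and 10.77 in negative spheres and 10.03, 10.19 and 9.55 in the cell line. SLC24A2, a sodium, calcium and potassium exchanger, was 6.51 and 7.48 in negative spheres and 6.33, 6.19 and 5.42 in the cell line, the negative spheres replicate 1 lying close to the cell line.

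**Figure D2:**
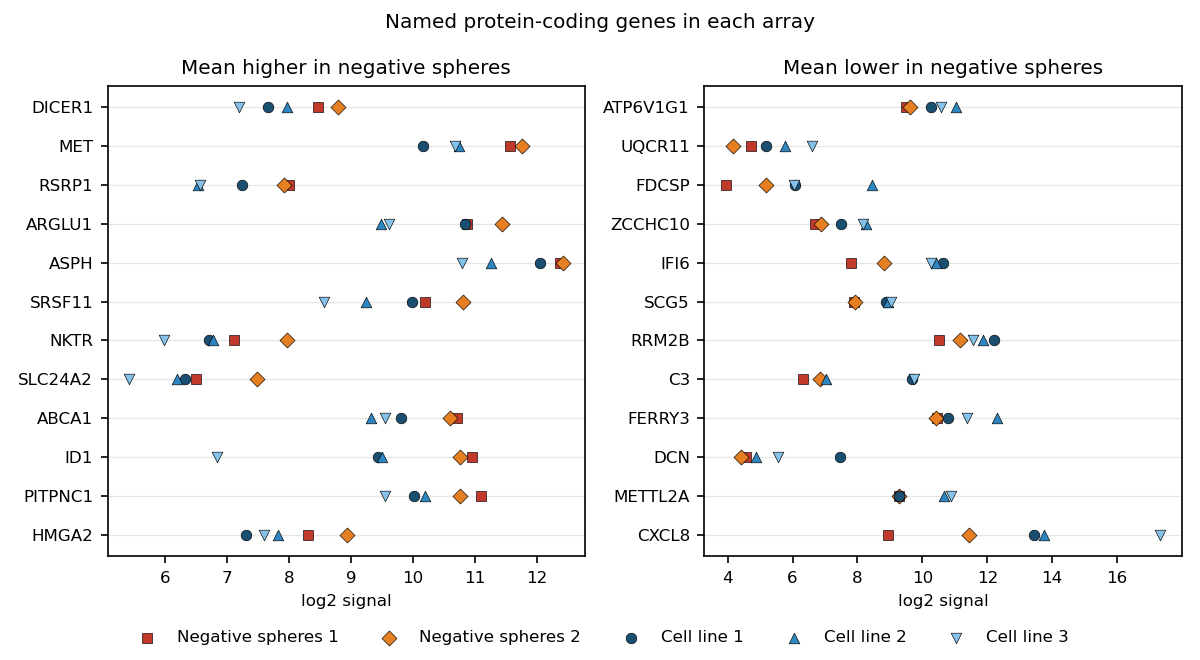
Log2 signal (horizontal axis) of the 12 genes with a higher mean (left) and the 12 with a lower mean (right) in negative spheres, 1 point per array: red square and orange diamond, negative spheres; blue circle and triangles, cell line replicates 1 to 3. The groups do not overlap in any of these genes by the rule that chose them, with the widest spread in CXCL8 (8.94 to 17.33).

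The relation of the differences to gene length varied with the cell line array. Genes with a mean of at least 5 and a known span in the genome were put in 4 bins of equal size by that span. The median difference was 0.02 over the 2010 shortest (up to 14635 bases) and 0.06, 0.09 and 0.13 over the next bins of 2009 genes each. Negative spheres minus cell line replicate 3 gave 0.12 in the shortest bin and 0.38 in the longest, and negative spheres minus cell line replicate 1 gave -0.10 and 0.02. Negative spheres minus cell line replicate 2 went the other way, with 0.12 in the shortest bin and 0.04 in the longest. The part of this in the genes above was not tested.

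Among genes lower in negative spheres, CXCL8, which encodes the neutrophil attractant interleukin 8 and whose promoter is printed above, had the largest difference. It was 8.94 and 11.42 in negative spheres and 13.44, 13.74 and 17.33 in the cell line. The groups did not overlap, but both spread widely, and the mean difference of -4.65 ± 1.97 log2 (SE), 25.2-fold lower, had an unadjusted p of 0.038 and an adjusted p of 0.732 in limma. Of 16 measured chemokines, 13 had a lower mean in negative spheres and 5 lay below all cell line arrays (6.99% of all genes), but CXCL8 alone had a nominal p up to 0.05 (1.6% of all genes) and the median difference was -0.19. The CXCL8 difference was -5.89 log2 without negative spheres replicate 2 and -3.41 without either negative spheres replicate 1 or cell line replicate 3. In limma the unadjusted p was 0.21 without negative spheres replicate 1 and 0.125 without cell line replicate 3. Only 4 of the 16 had a mean of at least 5. CCL2, the monocyte attractant, was 8.87 and 9.26 in negative spheres and 10.96, 10.55 and 6.58 in the cell line, where replicate 3, the highest array for CXCL8, was the lowest.

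Interleukins and the prostaglandin synthase PTGS2 (COX-2) had mostly lower means. PTGS2 was 6.42 and 8.16 in negative spheres and 8.63, 7.26 and 10.27 in the cell line, and IL1A, interleukin 1 alpha, was 6.02 and 6.90 in negative spheres and 7.52, 7.02 and 8.47 in the cell line. The groups overlapped in PTGS2 and not in IL1A, and negative spheres replicate 1 was the lowest array in both. Of 16 measured members, 12 had a lower mean in negative spheres, 0 had a nominal p up to 0.05, and the median difference was -0.57, against -0.0023 over all genes. The median lay between -1.03 without negative spheres replicate 2 and -0.26 without negative spheres replicate 1.

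IFI6, an interferon-inducible protein of mitochondria and endoplasmic reticulum, was 7.81 and 8.81 in negative spheres and 10.64, 10.43 and 10.27 in the cell line, with a gap of more than 1 log2 between the groups. It was 4.4-fold lower in negative spheres (log2 -2.14 ± 0.64 SE, unadjusted p = 0.00664 and adjusted p = 0.622 in limma). The other 17 measured interferon-stimulated genes had smaller differences. ISG15, a ubiquitin-like protein, was near background at 3.55 and 3.29 in negative spheres and 3.55, 3.85 and 3.75 in the cell line. IFI44L was 7.53 and 8.15 in negative spheres and 6.51, 8.54 and 6.24 in the cell line. Of 18 measured members, 2 were lower at a nominal p up to 0.05 (1.6% of all genes) and 0 higher, and 5 were below all cell line arrays (6.99% of all genes). Only 5 of the 18 had a mean of at least 5. The median was -0.05, which became 0.05 after median centring or quantile normalization.

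C3, the central complement protein, was 6.33 and 6.84 in negative spheres and 9.68, 7.02 and 9.73 in the cell line (4.69-fold lower). Cell line replicate 2 was close to negative spheres. FDCSP, a small secreted peptide of follicular dendritic cells, was 3.96 and 5.17 in negative spheres and 6.07, 8.45 and 6.04 in the cell line (4.91-fold lower), and DCN, the collagen-binding proteoglycan decorin, was 4.56 and 4.42 in negative spheres and 7.47, 4.89 and 5.54 in the cell line. In FDCSP and DCN 1 array of the cell line stood well above the others, replicate 2 in FDCSP and replicate 1 in DCN. SCG5, the secretory chaperone of a prohormone convertase, differed the other way in its spread, with 7.89 and 7.94 in negative spheres and 8.88, 8.93 and 9.03 in the cell line. The gap between its groups was several times the range of either, yet its limma p was 0.0109 unadjusted and 0.622 adjusted, since the fit takes 1 spread per gene from all 14 arrays.

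RRM2B, a ribonucleotide reductase subunit induced by p53, was 10.50 and 11.16 in negative spheres and 12.21, 11.88 and 11.57 in the cell line (2.08-fold lower). The p53 targets CDKN1A, at 6.69 and 6.68 in negative spheres and 7.77, 6.56 and 7.09 in the cell line, and GDF15, at 5.57 and 5.22 in negative spheres and 6.78, 4.90 and 6.48 in the cell line, overlapped. Of 13 measured p53 targets, 12 had a lower mean in negative spheres, but 1 had a nominal p up to 0.05 (1.6% of all genes). The median of -0.22 became 0.05 without cell line replicate 1, in which the list was highest, and 4 of 13 had such a p without cell line replicate 2 (2.58% of all genes).

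The other lower genes code for small subunits and little studied proteins. ATP6V1G1, a subunit of the proton pump of lysosomes, was 9.48 and 9.63 in negative spheres and 10.26, 11.03 and 10.58 in the cell line (2.10-fold lower, unadjusted p = 0.0016 and adjusted p = 0.469 in limma). UQCR11, a subunit of respiratory complex III, was 4.71 and 4.17 in negative spheres and 5.19, 5.77 and 6.59 in the cell line. Of complex I, NDUFA1 was 8.55 and 7.80 in negative spheres and 8.79, 9.39 and 9.06 in the cell line, and NDUFB3 was 9.11 and 8.36 in negative spheres and 9.17, 10.31 and 9.65 in the cell line. NDUFA10 was 5.46 and 5.53 in negative spheres and 5.15, 5.19 and 5.39 in the cell line, the opposite direction, and the median of the 20 complex I genes was -0.03, which became 0.06 after median centring and 0.14 after quantile normalization. ZCCHC10, a zinc finger protein, was 6.70 and 6.88 in negative spheres and 7.49, 8.26 and 8.18 in the cell line. FERRY3, of an endosomal complex that carries mRNA, was 10.46 and 10.43 in negative spheres and 10.79, 12.30 and 11.37 in the cell line. METTL2A, a tRNA methyltransferase, was 9.27 and 9.28 in negative spheres and 9.29, 10.68 and 10.90 in the cell line. Cell line replicate 1 was at the level of negative spheres in METTL2A, which has a near-identical copy, METTL2B, whose RNA its probes may share.

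The lists show how far named pathways differed as a whole. Of 48 lists with 712 measured entries, 25 had no member at a nominal p up to 0.05, 13 had such members only among the higher genes, 7 only among the lower ones and 3 in both directions. No member of any list passed the adjusted p.

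Chaperones and degradation factors of the endoplasmic reticulum had higher means in negative spheres, but cell line replicate 1 was not apart from them. All 16 measured genes of the unfolded protein response had a higher mean, with a median difference of 0.33. The median was -0.0023 over all genes and 0.07 over genes with a mean of at least 5, which 15 of the 16 had. In 5 of the 16 the groups did not overlap (7.05% of all genes), and 3 had a nominal p up to 0.05 (3.1% of all genes). Relative to the mean of the 5 arrays, the list had a median of 0.13 and 0.29 in negative spheres and 0.17, -0.45 and -0.25 in cell line replicates 1, 2 and 3, so that cell line replicate 1 lay between both arrays of negative spheres. HSPA5, the chaperone BiP, was 15.99 and 16.46 in negative spheres and 15.97, 14.79 and 15.44 in the cell line. The groups did not overlap, but cell line replicate 1 all but reached negative spheres replicate 1 (difference 0.83 ± 0.29 SE, unadjusted p = 0.0155 and adjusted p = 0.645 in limma). PDIA4, a disulfide isomerase, was 11.14 and 11.28 in negative spheres and 10.86, 9.79 and 10.31 in the cell line. DNAJC3, a co-chaperone that also restrains the kinase PERK, was 11.33 and 11.31 in negative spheres and 11.07, 10.58 and 10.93 in the cell line. XBP1, the transcription factor of this response, was 8.19 and 8.30 in negative spheres and 8.05, 7.90 and 7.64 in the cell line (unadjusted p = 0.154 in limma). CALR, the calcium-binding chaperone calreticulin, whose promoter also holds the element, was 17.78 and 18.04 in negative spheres and 18.44, 16.93 and 17.47 in the cell line, with overlap. The count at a nominal p up to 0.05 was 8 of 16 without cell line replicate 1 (6.77% of all genes) and 2 without negative spheres replicate 2 (2.55%). Quantile normalization also gave 8 (8.6% of all genes), and a fit of the 5 arrays alone gave 1 (1.29%).

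Enzymes of serine and asparagine synthesis and other ATF4 targets leaned the same way, with 17 of 20 means higher in negative spheres and a median of 0.37. Of the 20, 18 had a mean of at least 5, and over all such genes the median was 0.07. Relative to the mean of the 5 arrays, the list had a median of 0.27 and 0.09 in negative spheres. In cell line replicates 1, 2 and 3 it was -0.06, -0.47 and 0.17, so that replicate 3 lay between both arrays of negative spheres. Cell line replicate 2 was the lowest array in 10 of the 20 genes. PSAT1, which makes serine, was 11.13 and 10.51 in negative spheres and 8.45, 9.55 and 10.12 in the cell line (2.72-fold, unadjusted p = 0.0349 and adjusted p = 0.72 in limma). CEBPG, a transcription factor partner of ATF4, was 7.10 and 6.79 in negative spheres and 6.45, 6.29 and 6.56 in the cell line. ASNS, asparagine synthetase, was 7.07 and 7.45 in negative spheres and 6.03, 6.34 and 7.16 in the cell line, where replicate 3 reached negative spheres. DDIT3, the stress factor CHOP, was 6.64 and 6.30 in negative spheres and 6.15, 6.67 and 9.66 in the cell line, high in replicate 3 alone. The count at a nominal p up to 0.05 was 2 of 20 (3.1% of all genes). It was 8 without cell line replicate 3 (2.58% of all genes) and 1 without cell line replicate 2 (4.45%) or negative spheres replicate 1 (3.45%). After centring on bright protein-coding clusters it was 0 (1.68%). WARS1, the tryptophanyl-tRNA synthetase, was 9.73 and 9.90 in negative spheres and 9.10, 8.66 and 9.34 in the cell line.

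Genes of mitosis had higher means in negative spheres in all 20 measured members, with a median of 0.61, but 0 had a nominal p up to 0.05. All 20 had a mean of at least 5, and over all such genes the median was 0.07. MKI67, the proliferation antigen, was 12.58 and 13.81 in negative spheres and 10.55, 12.04 and 12.28 in the cell line (unadjusted p = 0.0666 and adjusted p = 0.768 in limma). TPX2, a spindle assembly factor, was 13.94 and 14.15 in negative spheres and 12.24, 13.15 and 13.57 in the cell line. CDC20, an activator of the anaphase-promoting complex, was 9.56 and 9.01 in negative spheres and 8.57, 8.61 and 8.84 in the cell line, and PLK1, a mitotic kinase, was 12.15 and 11.77 in negative spheres and 11.51, 10.86 and 11.36 in the cell line. Cell line replicate 1 was the lowest array in MKI67, TPX2 and CDC20, and cell line replicate 2 in PLK1. Relative to the mean of the 5 arrays, the list had a median of 0.39 and 0.27 in negative spheres and -1.01, 0.32 and -0.08 in cell line replicates 1, 2 and 3. Without cell line replicate 1 the median difference was 0.24 in place of 0.61. When gliospheres replicate 3 was left out of the fit, which changes only the estimate of spread for these 2 groups, 6 of 20 had a nominal p up to 0.05 (3.72% of all genes). A fit of the 5 arrays alone gave 3 (1.29% of all genes).

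**Figure D3:**
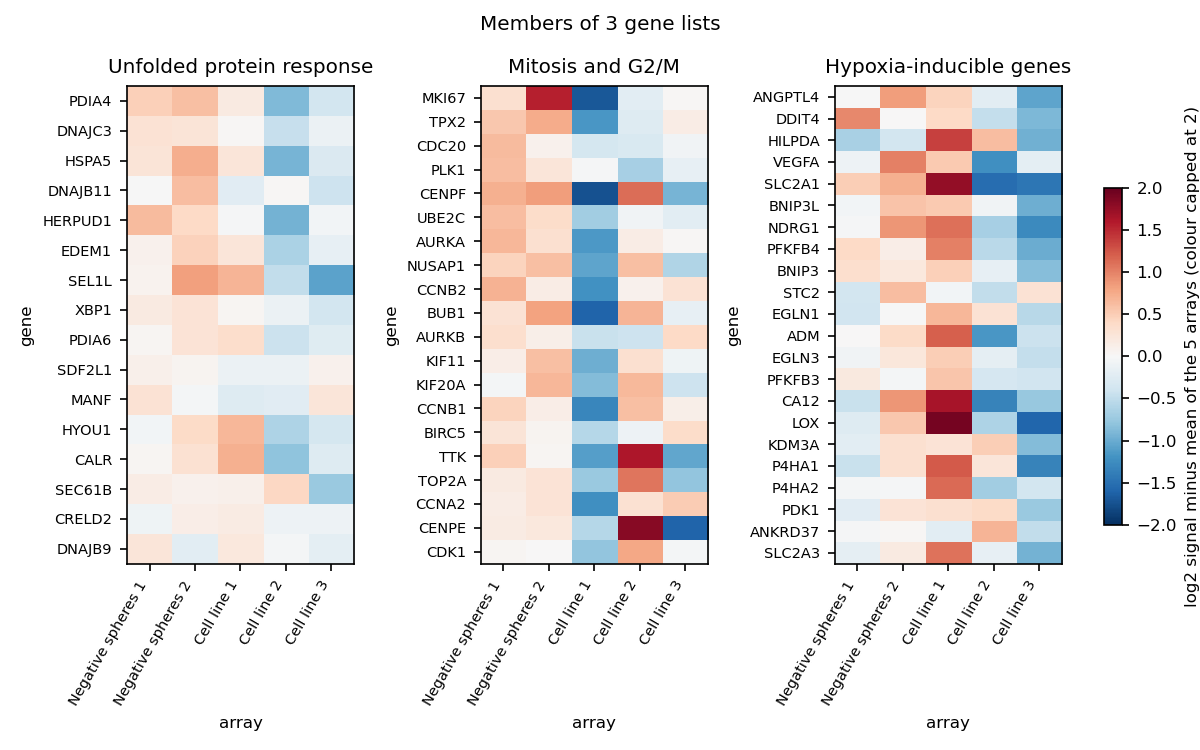
Log2 signal minus the mean of the 5 arrays (colour, capped at 2 in either direction) for the measured members of 3 lists (rows, by p) in the arrays of negative spheres and the cell line (columns). Cell line replicate 1 is the lowest array in 17 of 20 mitosis genes and the highest in 14 of 22 hypoxia-inducible genes, whereas members of the unfolded protein response are mostly low in cell line replicates 2 and 3.

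Hypoxia-inducible genes divided the cell line rather than the groups. Relative to the mean of the 5 arrays the 22 genes had a median of -0.06 and 0.29 in negative spheres and 0.61, -0.28 and -0.86 in cell line replicates 1, 2 and 3. The glucose transporter SLC2A1 was 11.36 and 11.58 in negative spheres and 12.62, 9.35 and 9.42 in the cell line, and VEGFA, the angiogenic factor, was 10.40 and 11.52 in negative spheres and 11.03, 9.29 and 10.31 in the cell line. With all 5 arrays 18 of the 22 had a higher mean in negative spheres, the median difference was 0.22 and 0 had a nominal p up to 0.05. Without cell line replicate 3 the median was -0.0043 and 1 gene was lower at such a p (2.29% of all genes). Without cell line replicate 1 the median was 0.66, 10 of the 22 were higher at such a p (6.77% of all genes) and 0 lower, and SLC2A1 passed at an adjusted p of 0.0395 in limma (log2 2.09). GYS1, the muscle glycogen synthase, followed the same arrays, at 7.56 and 7.45 in negative spheres and 9.01, 6.44 and 6.20 in the cell line, and passed without cell line replicate 1 (adjusted p = 0.0267). GYS1 was named after its values were seen.

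**Figure D4:**
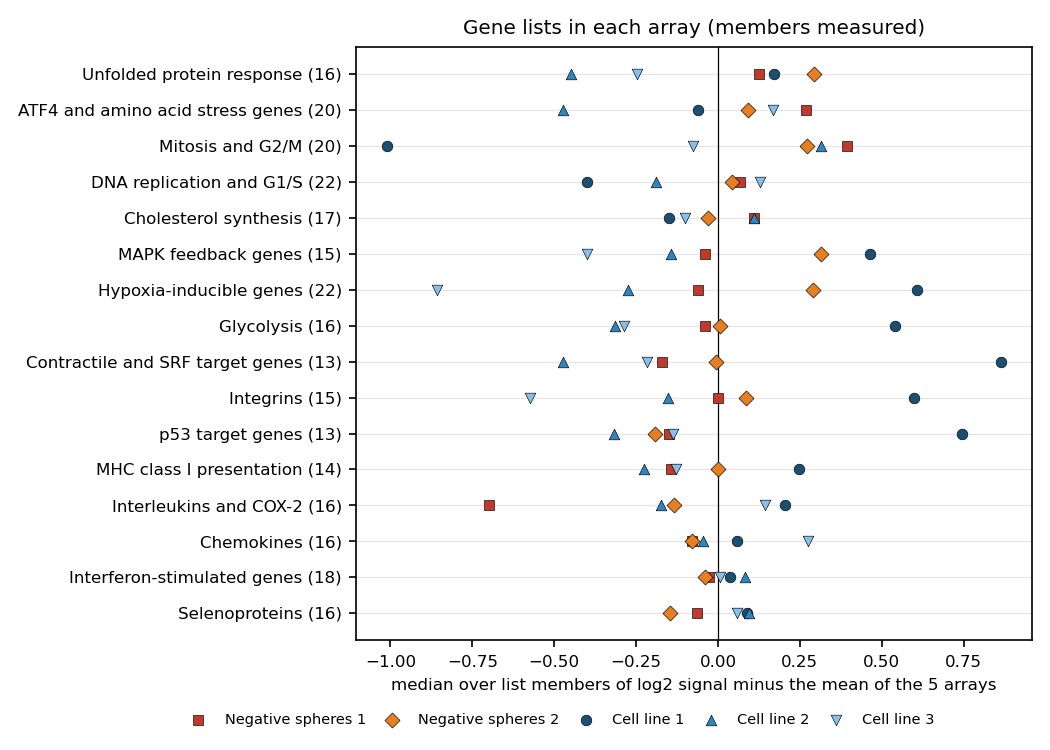
Median over the measured members of 16 gene lists (rows, number measured in brackets) of the log2 signal minus the mean of the 5 arrays (horizontal axis), 1 point per array. Cell line replicate 1 is at 0.61 for hypoxia-inducible genes, 0.75 for p53 targets and -1.01 for mitosis, outside the other 4 arrays in each.

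The arrays of the cell line ranged more widely than those of negative spheres. Over the 8067 genes with a mean of at least 5, the median range was 0.26 between both arrays of negative spheres and 0.78 over the 3 of the cell line, and 259 genes in negative spheres and 2935 in the cell line ranged over 2-fold or more. A range over 3 arrays is wider than one over 2 for the same spread; the median SD was 0.19 in negative spheres and 0.41 in the cell line. MMP3, the protease stromelysin, had the largest range, with 9.76 and 10.19 in negative spheres and 11.39, 9.81 and 16.24 in the cell line. It was the 1 gene of the 8 most variable in the cell line that was highest in replicate 3. Among the 3 arrays of the cell line, the other 7 were highest in replicate 1 and lowest in replicate 3.

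TIMP3, an inhibitor of metalloproteases, was 7.07 and 8.84 in negative spheres and 12.40, 7.60 and 6.41 in the cell line. CHI3L1, a secreted lectin that marks mesenchymal glioblastoma, was 9.94 and 10.78 in negative spheres and 14.43, 9.80 and 8.53 in the cell line. FN1, fibronectin, was 15.98 and 16.42 in negative spheres and 17.72, 15.20 and 12.92 in the cell line, and THBS1, thrombospondin, was 6.82 and 8.64 in negative spheres and 10.64, 7.60 and 5.24 in the cell line. In each of these, negative spheres lay inside the range of the cell line. The same held for IGFBP1, a secreted binder of insulin-like growth factors, at 9.53 and 9.64 in negative spheres and 11.97, 8.52 and 6.46 in the cell line, and for LOXL1, a cross-linker of elastin, at 8.61 and 8.32 in negative spheres and 11.35, 7.28 and 6.61 in the cell line. KRTAP1-5, a keratin-associated protein, was 5.63 and 7.28 in negative spheres and 11.001, 6.31 and 6.13 in the cell line.

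The 4 genes with the largest differences between both arrays of negative spheres were all higher in replicate 2. IL1B, interleukin 1 beta, was 10.15 and 14.24 in negative spheres and 12.48, 13.90 and 15.40 in the cell line. EGR1, an immediate early transcription factor, was 7.61 and 10.49 in negative spheres and 12.39, 8.59 and 9.42 in the cell line. TCIM, a regulator of Wnt signalling, was 6.69 and 8.97 in negative spheres and 9.41, 8.90 and 8.87 in the cell line, and CXCL8 differed by 2.48 log2 between the arrays of negative spheres. Without negative spheres replicate 1 the difference in IL1B became 0.32 in place of -1.73, and that in EGR1 0.36 in place of -1.08.

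**Figure D5:**
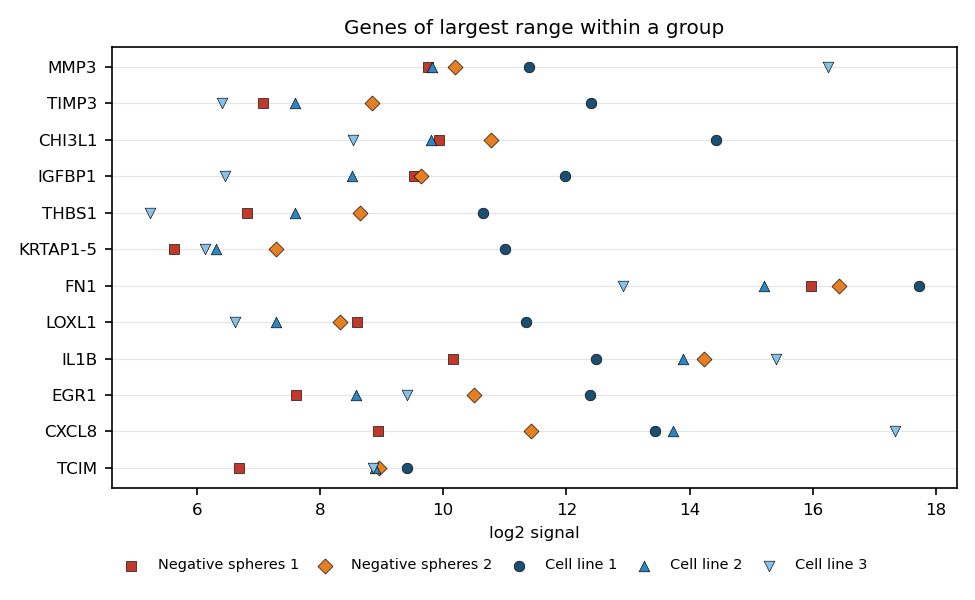
Log2 signal (horizontal axis) of the 8 genes with the largest range over the cell line arrays and the 4 with the largest difference between the arrays of negative spheres (rows), 1 point per array. MMP3 reached 16.24 in cell line replicate 3, while TIMP3, CHI3L1, FN1 and the 4 genes like them were highest in cell line replicate 1.

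Levels in the untreated gliospheres of the study give a scale for some of these genes, with no test made of them here. ID1 was 10.96 and 10.76 in negative spheres and 5.66, 7.49 and 6.99 in gliospheres. IGFBP1 was 9.53 and 9.64 in negative spheres and 3.85, 4.04 and 3.66, near background, in gliospheres. MSMO1, an enzyme of cholesterol synthesis, was 12.54 and 12.83 in negative spheres, 16.01, 16.17 and 15.86 in gliospheres and 11.81, 12.46 and 11.72 in the cell line. MSMO1 was the 1 gene of 17 measured in cholesterol synthesis with a nominal p up to 0.05 between negative spheres and the cell line (log2 0.69, adjusted p = 0.585 in limma), and the median of the 17 was 0.14. CXCL8, at 8.94 and 11.42 in negative spheres, was 13.60, 14.84 and 6.88 in gliospheres, with 1 array far below the other two.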

How the data were processed

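RNA of each sample was labelled as biotinylated cDNA and hybridised to the Human Transcriptome Array 2.0. The authors summarised the scans with SST-RMA (Transcriptome Analysis Console), which gave the deposited log2 signals, 1 per transcript cluster and array, with no counts or depth. Of 70523 features, 67528 are transcript clusters, and these were analysed. Gene names are those of the array annotation given: 23781 clusters have 1 symbol, 1543 several and 42204 none. Arrays were grouped by title. The log2 values were fitted as deposited with limma 3.58.1 in R 4.3.3, over all 14 arrays in 5 groups that share 1 spread per cluster, with Benjamini-Hochberg adjustment over all clusters. The fit was tested on simulated data. Tables and plots were made with Python 3.11.15. The cluster with the highest mean stands for a gene.

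Named genes follow a rule: in each direction, the 12 protein-coding genes with the smallest nominal p up to 0.05, a fold of at least 2, groups that do not overlap and a higher mean of at least 5; up to 4 genes of smallest p per list, with PROM1; the 8 genes with the largest range over the cell line; and the 4 with the largest difference between the arrays of negative spheres. Other genes named were chosen after their values were seen. The comparison, its genes and its lists were chosen with earlier results of these data known. Alternatives were a fit of the 5 arrays alone, an intensity trend, quantile normalization, 2 centrings, 2 filters, array weights, the replicate number as a block, all clusters of a gene, and leaving out single arrays. Promoters come from RefSeq on GRCh38.p14.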

Additional observations from a re-analysis of the deposited data

How the results depend on the processing

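The count at an adjusted p below 0.05 was 0 with every alternative except leaving out single arrays, where it lay between 0 and 198. At a nominal p up to 0.05 with a difference of 2-fold or more, the 138 clusters higher in negative spheres became 417 after quantile normalization, 91 after centring on bright protein-coding clusters and 36 among clusters with 1 gene symbol, and lay between 147 and 416 with single arrays left out. The 775 lower ones became 281 in a fit of the 5 arrays alone, 128 among clusters with 1 gene symbol and 1363 with array weights, and lay between 423 and 2164 with single arrays left out. The share of higher ones was 15.1% as deposited, 44.2% after quantile normalization and 25.6% after median centring; the median over all clusters was -0.06 as deposited, 0.03 after quantile normalization, 0.04 after median centring and -0.14 after centring on bright protein-coding clusters. With the replicate number as a block, 114 were higher and 865 lower and 0 passed the adjusted p. Deviations from the group means had correlations of -0.07 and -0.19 between same-numbered arrays of the groups. The deviations of the 2 arrays of negative spheres mirror each other, so these values cannot show whether the numbers pair the samples. The 24 genes named by p and fold kept their direction throughout. They were chosen for groups that do not overlap, so leaving out a single array could not reverse them. Of 78 genes followed, 11 changed sign in at least 1 alternative. THBS1 became 0.11 after quantile normalization and 0.0 after median centring, LOXL1 -0.04 after centring on bright protein-coding clusters and -0.01 with array weights, and PROM1 -0.08 after that centring. With single arrays left out, CHI3L1 lay between -1.76 and 1.19, EGR1 between -2.52 and 0.36, FN1 between -0.26 and 2.14, GYS1 between -0.22 and 1.18, IGFBP1 between -0.66 and 2.10, IL1B between -3.77 and 0.32, KRTAP1-5 between -2.20 and 0.23, LOXL1 between -0.85 and 1.51, PROM1 between -0.09 and 0.10, THBS1 between -1.39 and 1.31 and TIMP3 between -2.05 and 0.95. The cause of these changes was not tested. Precision is limited by the number of arrays.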

Other observations

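The protein-coding genes with the smallest p did not reach a 2-fold difference, and were named after their values were seen. PODXL, a sialylated membrane protein, was 5.53 and 5.76 in negative spheres and 4.79, 4.84 and 4.93 in the cell line (log2 0.80, adjusted p = 0.173 in limma). VEZF1, a zinc finger transcription factor, was 10.85 and 10.70 in negative spheres and 10.03, 9.81 and 9.92 in the cell line (log2 0.85). In both genes the gap between the groups was wider than the range of either. NALCN, a sodium leak channel, was 5.98 and 6.16 in negative spheres and 5.07, 5.40 and 5.18 in the cell line. BRD7, a bromodomain protein of chromatin remodelling complexes, was 9.80 and 9.76 in negative spheres and 9.08, 8.65 and 8.999 in the cell line. Without cell line replicate 1 the adjusted p was 0.041 for PODXL and VEZF1, 0.0476 for NALCN and 0.0461 for BRD7 in limma. GPR183, a receptor for oxysterols, was 3.77 and 3.86 in negative spheres and 4.55, 4.45 and 4.91 in the cell line, low on all 5 arrays.

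Genes of antigen presentation by MHC class I differed in direction. Of 14 measured, 2 were higher at a nominal p up to 0.05 in limma (3.1% of all genes), ERAP1 and ERAP2, which trim peptides in the endoplasmic reticulum, and 1 was lower (1.6% of all genes), PSMB9, a subunit of the immunoproteasome. The median of the 14 was -0.22, and 10 had a lower mean in negative spheres. Without cell line replicate 1 the median was 0.14, and a fit of the 5 arrays alone gave 0 higher and 0 lower at a nominal p up to 0.05.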
